A study of Mus musculus with 12 samples.

Results

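Serpinb5, Frmd4b, Sbno2, Gnaq and D730005E14Rik are 5 genes that lay higher in CD4+ T cells after 2 h of IL-12 than in cells kept without it for 2 h, and they were selected on that rise. They are 5 of 19752 genes measured, on 6 probe sets, since D730005E14Rik has 2. The study used Affymetrix Mouse Gene 1.0 ST arrays on splenic CD4+ T cells of male C57BL/6 mice aged 6 weeks, enriched by negative selection and activated for 48 h with beads against CD3 and CD28. All 12 samples share that activation. IL-12 at 100 U/ml was then given for 8 h (4 arrays) or 2 h (5 arrays), 2 samples stayed without IL-12 for 2 h (untreated), and 1 is labelled baseline, with no culture time. No untreated array at 8 h was analysed here, so at 8 h IL-12 and longer culture cannot be told apart. Whether the arrays of 1 group stand for different mice or cultures is not stated, so the errors given here are those between arrays and may be technical. Values are log2 intensities, and a level can be compared between arrays for 1 gene but not between genes.

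IL-12 is made by antigen-presenting cells and acts on helper T cells mainly through the transcription factor STAT4, which drives interferon-gamma and the Th1 fate. The 5 genes have unlike roles. Serpinb5 encodes maspin, a clade B serpin best known from epithelial cells that does not act as a classical protease inhibitor. Frmd4b encodes a FERM-domain scaffold protein that binds cytohesins, the exchange factors of Arf GTPases. Sbno2 encodes a strawberry notch homologue, a transcriptional co-regulator known in macrophages as a target of IL-10 and STAT3. Gnaq encodes the alpha subunit of the G protein Gq, which activates phospholipase C beta. D730005E14Rik is annotated by RefSeq as a long noncoding RNA, with no function given.

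Promoter windows of 300 bases, from 250 before to 50 after each annotated start, were at hand for all 5 genes in RefSeq (GRCm38.p6), 9 windows in all. They are shown because the genes were selected as early risers, with 1 window per gene that holds a match to a searched motif. Searched on both strands were TTCNNNGAA (STAT-type), its variant with a gap of 4 unspecified bases, TGANTCA (AP-1), TGACGTCA (cAMP response element), the interferon-stimulated response element, TCACACCT (T-box) and TATAAA. Capitals mark the matches.
Serpinb5, chr1:106860925-106861224, + strand, AP-1: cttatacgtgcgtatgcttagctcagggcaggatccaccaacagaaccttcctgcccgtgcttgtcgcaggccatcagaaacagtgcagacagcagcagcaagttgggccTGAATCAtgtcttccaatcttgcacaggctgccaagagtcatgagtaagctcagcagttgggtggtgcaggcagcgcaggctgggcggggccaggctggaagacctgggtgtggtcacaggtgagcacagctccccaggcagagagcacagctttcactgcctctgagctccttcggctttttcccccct
Frmd4b, chr6:97459237-97459536, - strand, AP-1 and TATAAA: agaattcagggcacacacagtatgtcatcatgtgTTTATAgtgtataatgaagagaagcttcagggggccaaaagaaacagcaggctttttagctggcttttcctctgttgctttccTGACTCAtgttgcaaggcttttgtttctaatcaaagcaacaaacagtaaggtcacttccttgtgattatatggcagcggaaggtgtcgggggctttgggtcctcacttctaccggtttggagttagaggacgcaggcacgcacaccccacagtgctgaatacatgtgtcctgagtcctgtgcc
Sbno2, chr10:80101138-80101437, - strand, TTCNNNGAA: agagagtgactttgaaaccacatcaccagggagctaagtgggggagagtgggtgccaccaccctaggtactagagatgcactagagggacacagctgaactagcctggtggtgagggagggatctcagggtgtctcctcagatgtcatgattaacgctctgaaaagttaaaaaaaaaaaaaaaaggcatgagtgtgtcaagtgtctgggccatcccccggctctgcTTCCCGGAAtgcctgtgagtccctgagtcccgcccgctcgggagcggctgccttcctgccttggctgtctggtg
Gnaq, chr19:16132434-16132733, + strand, TTCNNNGAA: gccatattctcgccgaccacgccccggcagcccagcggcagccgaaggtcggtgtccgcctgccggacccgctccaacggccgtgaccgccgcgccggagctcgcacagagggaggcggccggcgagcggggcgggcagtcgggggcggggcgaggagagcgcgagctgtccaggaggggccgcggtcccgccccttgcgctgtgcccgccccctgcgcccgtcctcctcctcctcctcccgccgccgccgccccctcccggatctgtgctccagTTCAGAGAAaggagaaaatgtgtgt
D730005E14Rik, chr15:79893089-79893388, - strand, TTCNNNGAA: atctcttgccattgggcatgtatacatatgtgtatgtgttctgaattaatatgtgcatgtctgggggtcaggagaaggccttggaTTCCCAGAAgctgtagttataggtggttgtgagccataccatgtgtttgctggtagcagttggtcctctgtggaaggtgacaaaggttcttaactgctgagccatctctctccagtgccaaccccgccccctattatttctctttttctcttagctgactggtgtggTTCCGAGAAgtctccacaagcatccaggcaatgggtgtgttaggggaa
TTCNNNGAA occurred in windows of 3 of the 5 genes, against 9.55% of the 27025 genes with a window and 8.3% of all 32851 windows. In Sbno2 it lay at -24 to -16 from the start site in the window shown and at -26 to -18 in another of its 3 windows, where the letters were TTCGCAGAA. Gnaq had it at 26 to 34, counting the first transcribed base as 1, and D730005E14Rik had it at -165 to -157 and again at 3 to 11. The AP-1 letters were found in Serpinb5, at -140 to -134, and in 1 of 3 Frmd4b windows, at -133 to -127, against 7.81% of all windows. TATAAA lay on the opposite strand of the same Frmd4b window at -216 to -211, against 13.6% of all windows. The wider STAT-type variant, TGACGTCA, the interferon-stimulated response element and TCACACCT had no match in the 9 windows, against 6.95%, 1.79%, 3.44% and 1.28% of all windows. These matches describe the letters of the windows and do not show binding.

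The arrays fell into runs by the numbers in their titles, which no label explains: IL-12 arrays numbered 2 to 4 and those numbered 5 and 6, with both untreated arrays and the baseline array among numbers 5 to 8. Arrays of the same group correlated across genes at a median r of 0.998 within a run and 0.992 between runs, and 24.3% of genes differed between the runs. The model therefore carries a run term, and values within a run are given beside it for the 5 genes. Differences from untreated cells can be taken within a run only in numbers 5 to 8. Markers of CD4+ T cells were bright, with 9 of 9 above the median of all genes and a mean log2 intensity between 11.65 and 11.82 on every array. Epithelial markers, listed because of Serpinb5, had a mean of 6.52 to 6.63 at IL-12 8 h, 6.56 to 6.62 at IL-12 2 h, 6.58 to 6.66 in untreated cells and 6.50 at baseline, and 2 of 12 were above the median of all genes. Macrophage and monocyte markers averaged 6.10 to 6.41 at IL-12 8 h, 6.16 to 6.47 at IL-12 2 h, 6.42 to 6.57 in untreated cells and 6.26 at baseline, with 2 of 13 above that median. NK cell markers, 1 of 5 above it, averaged 5.35 to 5.84, 5.57 to 5.85, 5.99 to 6.03 and 5.61 in the same order, so that untreated arrays lay above both IL-12 groups. CD8 T cell markers, 1 of 2 above that median, averaged 7.76 to 8.08, 7.84 to 8.32, 8.23 to 8.39 and 8.08 in the same order. Untreated arrays thus lay above the IL-12 8 h arrays and overlapped the IL-12 2 h arrays. The macrophage mean was added to the model as an alternative, and its values are given where they change a call. The part of the epithelial, NK and CD8 T cell lists in the results was not tested. In a bulk sample fewer cells of a type and less RNA per cell cannot be told apart.

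Serpinb5 kept rising. Its log2 intensity was 6.98, 7.13, 6.48 and 6.96 in IL-12 8 h arrays 2, 3, 5 and 6, and 6.57, 6.39, 6.45, 6.34 and 6.06 in IL-12 2 h arrays 2 to 6. Untreated arrays 7 and 8 had 5.23 and 5.17, and the baseline array had 5.19. Untreated and baseline cells thus differed by 0.0042, less than the spread of 0.043 (SD) of the untreated pair, while the means of both IL-12 groups lay above all 3 arrays without it. The gene was dim throughout, with a mean level above only 29.2% of genes. The difference from untreated cells, which chose the gene, was 1.54 ± 0.13 at IL-12 8 h and 0.99 ± 0.13 at IL-12 2 h (log2 ± SE). Within numbers 5 to 8, the run of the untreated arrays, it was 1.53 and 1.003. At IL-12 8 h the level was higher than at IL-12 2 h by a log2 of 0.56 ± 0.09 (limma adjusted p = 0.00113, 1.47-fold). The 8 h and 2 h ranges overlap over all arrays, and within a run the difference was 0.59 in numbers 2 to 4 and 0.52 in numbers 5 to 8. It was also the only one of the 5 genes called between the runs, higher by 0.30 ± 0.09 in numbers 2 to 4 (adjusted p = 0.0299). Without IL-12 8 h array 3 or 5, or IL-12 2 h array 2, 4 or 6, that run difference did not pass, with adjusted p up to 0.102.

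Frmd4b had its own highest level at IL-12 2 h and fell steeply by IL-12 8 h. Its log2 intensity was 9.06, 9.004, 9.26 and 9.20 in IL-12 8 h arrays 2, 3, 5 and 6, and 10.60, 10.69, 10.56, 10.39 and 10.27 in IL-12 2 h arrays 2 to 6. It was 9.49 and 9.61 in untreated arrays 7 and 8 and 8.90 in the baseline array. By group mean the falling order was IL-12 2 h, untreated, IL-12 8 h and baseline. Against untreated cells the log2 difference was -0.45 ± 0.12 at IL-12 8 h, which missed the threshold (limma adjusted p = 0.0558), and 0.91 ± 0.12 at IL-12 2 h. The difference at IL-12 8 h passed without IL-12 8 h array 5 (-0.54 ± 0.12, adjusted p = 0.0406). It also passed among genes above the median intensity (adjusted p = 0.0418). Under the other alternatives that kept both untreated arrays it did not pass (adjusted p up to 0.356). Within numbers 5 to 8, the run of the untreated arrays, Frmd4b had -0.32 and 0.78. Against IL-12 2 h it fell at IL-12 8 h by 1.37 ± 0.09 on the log2 scale (adjusted p = 3.83e-07), with -1.58 in numbers 2 to 4 and -1.11 in numbers 5 to 8. The difference between these within-run changes was -0.48 ± 0.11 and missed the threshold (adjusted p = 0.0517, interaction term of limma over 9 IL-12 arrays, where 1.96% of all genes were called). It passed without IL-12 2 h array 5 (-0.54 ± 0.12, adjusted p = 0.0414) and after a further quantile normalization (adjusted p = 0.0469). For the other 4 genes that adjusted p lay between 0.447 and 0.936. Frmd4b was also the gene with the widest step without IL-12, 0.65 higher in untreated cells than at baseline, a value with 1 baseline array and no test.

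Sbno2, the co-regulator, lost part of its rise. It had a log2 intensity of 10.08, 10.02, 9.99 and 9.91 in IL-12 8 h arrays 2, 3, 5 and 6, and 10.38, 10.54, 10.34, 10.24 and 10.03 in IL-12 2 h arrays 2 to 6. It had 9.61 and 9.38 in untreated arrays 7 and 8 and 9.32 at baseline. The means of both IL-12 groups lay above the untreated arrays, and their ranges overlapped. Untreated and baseline differed by 0.17, about the spread of 0.16 (SD) of the untreated pair. Its log2 difference from untreated cells was 0.41 ± 0.10 at IL-12 8 h and 0.69 ± 0.10 at IL-12 2 h, so that 58.9% of the early difference was left. Within numbers 5 to 8, the run of the untreated arrays, it was 0.46 and 0.64, with 71.6% left. At IL-12 8 h the difference passed in the 12-array model (limma adjusted p = 0.0448). It did not pass with the macrophage mean added (0.49 ± 0.14, adjusted p = 0.212) or in arrays numbered 5 to 8 alone (adjusted p = 0.108). The call was also lost without the run term (adjusted p = 0.0678) and after a further quantile normalization (adjusted p = 0.0553). Nor did the difference pass without IL-12 8 h array 2, 3, 5 or 6 (adjusted p = 0.0635, 0.0516, 0.147 and 0.101). With untreated array 7 or 8 left out, 1 untreated array remains, and the log2 difference was 0.52 or 0.29. Against IL-12 2 h Sbno2 fell at IL-12 8 h by 0.28 ± 0.07 (adjusted p = 0.0209), with -0.37 in numbers 2 to 4 and -0.18 in numbers 5 to 8. That call was lost with the title number as a block (-0.30 ± 0.08, adjusted p = 0.0584), with the mean of the macrophage markers added to the model (-0.25 ± 0.09, adjusted p = 0.114) and without the run term (-0.30 ± 0.10, adjusted p = 0.102). It was lost as well without IL-12 8 h array 2 or 3, or IL-12 2 h array 3 or 5 (adjusted p = 0.0687, 0.0936, 0.0512 and 0.0537), with log2 differences of -0.27, -0.25, -0.25 and -0.27.

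Gnaq also lost part of its rise. Its log2 intensity was 9.16, 9.19, 9.12 and 9.09 in IL-12 8 h arrays 2, 3, 5 and 6, and 9.60, 9.40, 9.38, 9.38 and 9.33 in IL-12 2 h arrays 2 to 6. It was 8.86 and 8.89 in untreated arrays 7 and 8 and 8.52 at baseline. The group means fell from IL-12 2 h through IL-12 8 h and untreated to baseline. Against untreated cells the log2 difference was 0.22 ± 0.08 at IL-12 8 h and 0.49 ± 0.08 at IL-12 2 h, with 44.8% left. The difference at IL-12 8 h did not pass (limma adjusted p = 0.187, and at lowest 0.106 under the alternatives). Within numbers 5 to 8, the run of the untreated arrays, Gnaq had 0.23 and 0.48, with 47.6% left. Untreated cells lay 0.35 above baseline, a step with 1 baseline array and no test. Against IL-12 2 h Gnaq fell at IL-12 8 h by 0.27 ± 0.06 on the log2 scale (adjusted p = 0.00669), with -0.29 in numbers 2 to 4 and -0.25 in numbers 5 to 8.

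D730005E14Rik, the noncoding RNA, stood above the untreated level at both times. Its brighter probe set had 8.98, 9.23, 9.21 and 9.41 in IL-12 8 h arrays 2, 3, 5 and 6, and 9.36, 9.24, 9.36, 9.23 and 9.31 in IL-12 2 h arrays 2 to 6. Untreated arrays 7 and 8 had 8.67 and 8.75 and the baseline array 8.45. The IL-12 groups overlap, and the means of both lie above the other arrays. The log2 difference from untreated cells was 0.53 ± 0.10 at IL-12 8 h and 0.63 ± 0.10 at IL-12 2 h, with 84.8% left. Within numbers 5 to 8, the run of the untreated arrays, it was 0.60 and 0.56, with 107.7% left. At IL-12 8 h the difference passed in the 12-array model (limma adjusted p = 0.0122). It did not pass with the macrophage mean added (0.40 ± 0.14, adjusted p = 0.377). The call rests on both untreated arrays: with array 7 or 8 left out, 1 remains, and the log2 difference was 0.49 or 0.57. The difference between IL-12 8 h and IL-12 2 h, -0.10 ± 0.08, did not pass (adjusted p = 0.518, 95% interval -0.26 to 0.07), and within runs it was -0.21 in numbers 2 to 4 and 0.043 in numbers 5 to 8. Its dimmer probe set showed smaller differences from untreated cells, 0.26 ± 0.09 at IL-12 8 h and 0.29 ± 0.09 at IL-12 2 h. Neither passed over 21425 probe sets (limma adjusted p = 0.163 and 0.725). With the mean of both probe sets the difference was 0.40 ± 0.08 at IL-12 8 h and 0.46 ± 0.08 at IL-12 2 h (adjusted p = 0.0193 and 0.104). Both probe sets correlated at r = 0.78 over the 12 arrays, which share groups and runs.

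**Figure D1:**
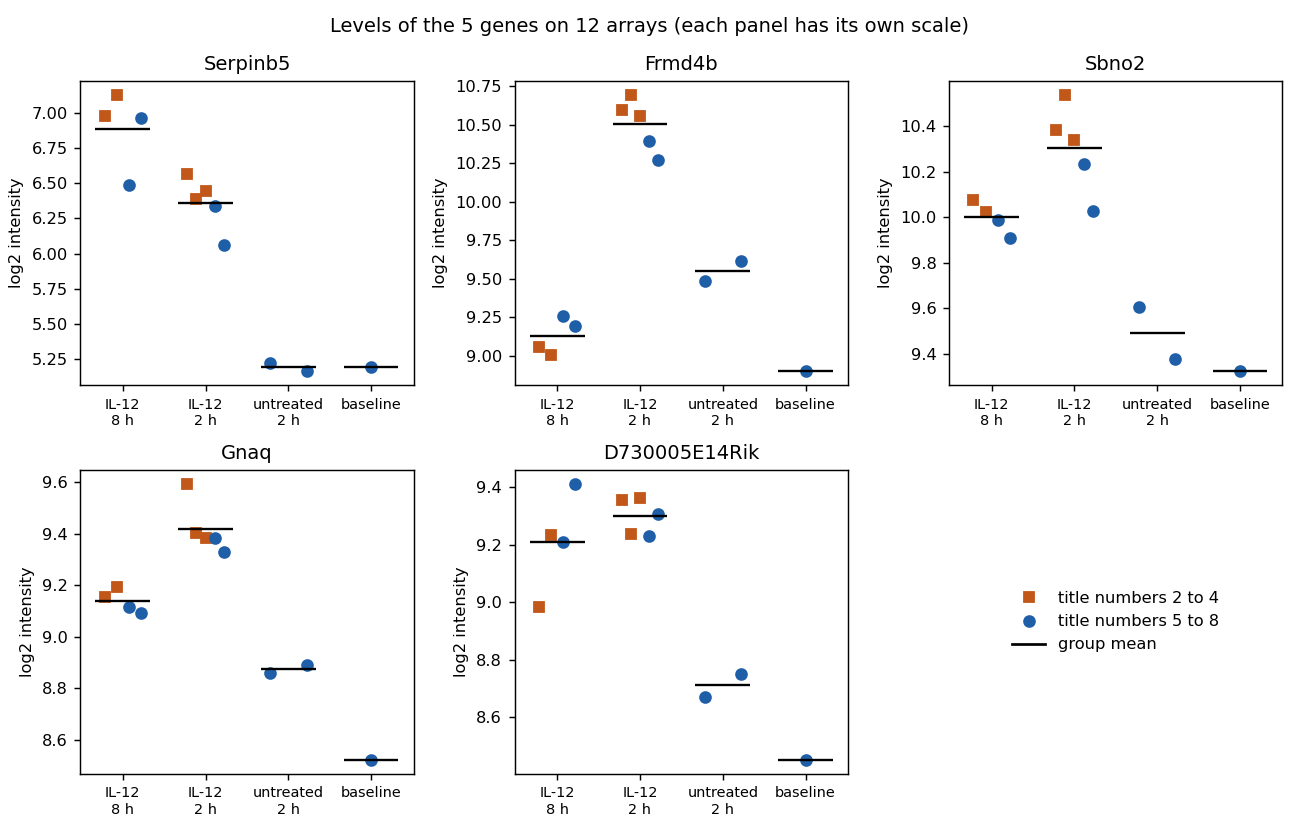
Log2 intensity of each gene on each array (points), by group, with the group mean as a line and the title number run as colour and shape. Serpinb5 is highest at IL-12 8 h, where its mean is 6.89, while Frmd4b drops to a mean of 9.13 at IL-12 8 h, against 10.50 at IL-12 2 h.

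Between IL-12 8 h and IL-12 2 h, 3 of the 5 genes fell and 1 rose, where 6.36% of all genes fell and 6.27% rose. With the arrays numbered 5 to 8 alone, 1 of the 5 was called, Frmd4b, while Serpinb5, Gnaq and Sbno2 had adjusted p = 0.15, 0.23 and 0.56. The IL-12 2 h arrays also chose these genes, and a choice of high values there favours a fall afterwards, so the falls are not independent evidence, whereas the rise of Serpinb5 runs against that choice. Of the other 9 genes called higher at 2 h, 7 fell and P2rx7, an ATP-gated channel gene, rose by 0.36 ± 0.06 (adjusted p = 0.0015). Il18r1, a receptor chain for IL-18, had -0.23 ± 0.10 (adjusted p = 0.165). Ifng, the gene of interferon-gamma, Furin, a proprotein convertase gene, and Jun, an AP-1 subunit gene, fell by 0.55 ± 0.14, 0.30 ± 0.07 and 0.28 ± 0.08 (adjusted p = 0.0227, 0.0101 and 0.029) and kept 71.8%, 65.8% and 69.9% of their early difference. Frmd4b was the only one of the 14 with a negative difference from untreated cells at IL-12 8 h, which did not pass the test. The rise at 2 h was called for 0.0709% of all genes, and these calls chose the members. Their number, 14, became 2 without untreated array 7, 5 without untreated array 8 and 9 without IL-12 2 h array 3. With the macrophage mean in the model it was 4, with 0 of the 5 members among them, whose log2 differences were then 0.48 to 0.89. In arrays numbered 5 to 8 alone it was 1, again with 0 of the 5 members, whose log2 differences were 0.48 to 1.003. Without untreated array 7 the members' log2 differences were 0.48 to 1.02, and without untreated array 8 they were 0.51 to 0.98. In both of these fits 1 untreated array remains. D730005E14Rik, with a log2 difference of 0.63 and adjusted p = 0.0484, lay just inside the threshold of 0.05, and Gbp5 and Cysltr2, with 0.52 and 0.96 and adjusted p = 0.0513 for both, just outside.

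**Figure D2:**
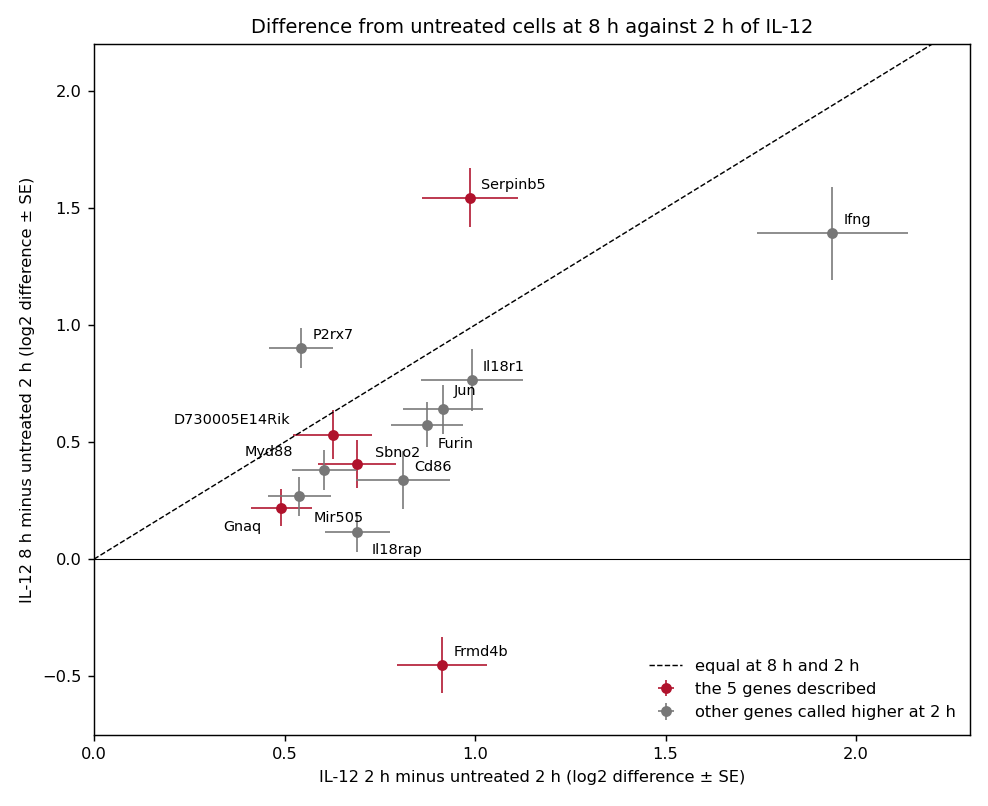
Log2 difference from untreated 2 h (± SE) at IL-12 8 h, vertical, against IL-12 2 h, horizontal, for the 14 genes called higher at 2 h; both axes share the 2 untreated arrays. Serpinb5 and P2rx7 lie above the dashed line of equal differences, and Frmd4b lies below 0 at IL-12 8 h.

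**Figure D3:**
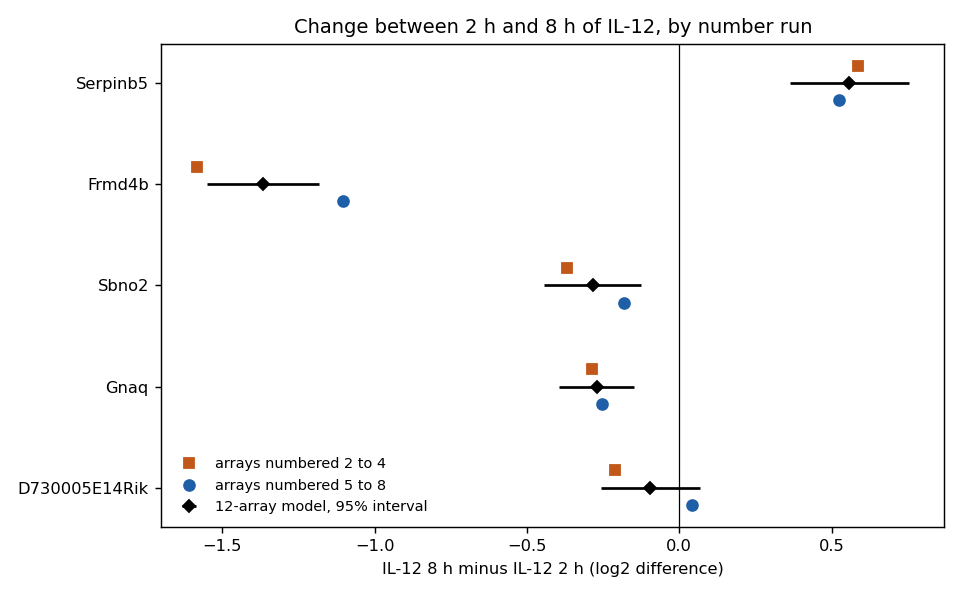
Log2 difference of IL-12 8 h minus IL-12 2 h for each gene, from the 12-array model with its 95% interval (diamond and bar) and within each number run (square and circle). The intervals of 4 genes lie clear of 0, and that of D730005E14Rik spans -0.26 to 0.07.

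IL-12 8 h against baseline is the comparison that uses no array on which the genes were chosen, with 4 arrays against 1. All 5 genes had 8 h arrays above the baseline array without overlap, as did 20.0% of all genes. The log2 difference was 1.70 ± 0.23 for Serpinb5, 0.23 ± 0.13 for Frmd4b, 0.68 ± 0.11 for Sbno2, 0.62 ± 0.10 for Gnaq and 0.76 ± 0.16 for D730005E14Rik. With the 5 arrays alone 0 of the 5 genes passed (limma adjusted p = 0.0975, 0.786, 0.15, 0.151 and 0.249), and 0.0506% of all genes did. The unadjusted p was 0.000146, 0.125, 0.000526, 0.000603 and 0.00238 in the same order. The baseline is a single array and is assumed to vary like the 8 h arrays, and the number of calls depends on the model. With a run term 1187 of all genes were called and 4 of the 5 members when the baseline array was placed with numbers 5 to 8, as its title number has it (adjusted p = 0.00407 for Serpinb5, 0.0143 for Sbno2, 0.0165 for Gnaq and 0.013 for D730005E14Rik). When it was placed with numbers 2 to 4, 269 genes were called, among them Serpinb5, Sbno2 and Gnaq (adjusted p = 0.00367, 0.0178 and 0.0252). Frmd4b passed in neither. Culture time, IL-12 and the single baseline array cannot be told apart here. Erythroid and platelet markers averaged 6.98 to 7.87 on the 8 h arrays and 8.20 on the baseline array, with 4 of 6 above the median of all genes. B cell markers averaged 6.99 to 7.35 on the 8 h arrays and 7.57 on the baseline array, with 2 of 7 above it. For both lists their part in the result was not tested.

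Relatives of the members in their families and pathways are set beside all genes, of which 6.27% rose and 6.36% fell at IL-12 8 h against IL-12 2 h. Clade B serpins had a median log2 difference of 0.03 between IL-12 8 h and IL-12 2 h, against -0.0090 over all genes. Of 24 measured, 2 rose, Serpinb5 and Serpinb10 (0.46 ± 0.12, adjusted p = 0.0204), and 2 fell, Serpinb6b (-0.54 ± 0.09, adjusted p = 0.000837) and Serpinb1a (-0.26 ± 0.08, adjusted p = 0.0412). FERM-domain scaffolds, cytohesins and Par polarity genes had a median of -0.04, with 1 of 24 higher, Frmd8 (0.72 ± 0.07, adjusted p = 1.1e-05), and 3 lower. Beside Frmd4b these were Pard6b (-0.19 ± 0.05) and Frmd6 (-0.34 ± 0.11), with adjusted p = 0.0234 and 0.0488. Of 15 G protein alpha subunit genes 0 rose and 2 fell, Gnaq and Gna13 (-0.33 ± 0.05, adjusted p = 0.000992), with a median of -0.03. Among 24 genes of Gq effectors and regulators 3 rose and 4 fell, with a median of 0.02. The largest falls were in Rgs2 (-1.15 ± 0.10), Rgs16 (-0.72 ± 0.08) and Rgs1 (-0.63 ± 0.09), regulators that speed the switching-off of G proteins (adjusted p = 4.3e-06, 6.14e-05 and 0.000331).

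In the list of STAT3-responsive genes, which holds Sbno2, 9 of 20 measured fell and 0 rose, with a median of -0.22, against -0.0090 over all genes, of which 6.36% fell and 6.27% rose. The smallest p among them belonged to Etv3, a transcriptional repressor gene (-0.86 ± 0.06, adjusted p = 1.03e-06), to Fos, an AP-1 gene (-0.92 ± 0.07, adjusted p = 1.49e-06), and to Bcl3, an atypical NF-kappaB inhibitor gene (-0.44 ± 0.06, adjusted p = 0.00051). At IL-12 2 h against untreated cells the list median was 0.15. Among 21 genes of the STAT4 and Th1 list 12 fell and 2 rose at IL-12 8 h against IL-12 2 h, with a median of -0.30. That list holds 4 genes called higher at IL-12 2 h, Ifng, Furin, Il18rap and Il18r1, of which all but Il18r1 are among the falls. A choice of high values at 2 h favours a fall, so the counts of both lists are not independent of it. The smallest p of the STAT4 and Th1 list belonged to Ccl4, a chemokine gene (-0.9965 ± 0.07, adjusted p = 1.07e-06), to the stress gene Gadd45b (-1.15 ± 0.12, adjusted p = 3.26e-05) and to Il18rap (-0.58 ± 0.06, adjusted p = 3.77e-05).

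Genes most like each member were ranked by Pearson's r over the 12 arrays with the run term subtracted; the points share groups and activation, and r is a description. Sbno2 and Gnaq were the members most alike (r = 0.92), and Serpinb5 and Frmd4b the least (r = -0.06). Frmd4b followed Atf6, Mxd1, Irf8, Tnip3 and Zswim6 (r from 0.98 to 0.97), and 98 genes with a given name exceeded an r of 0.9 with it. All 5 fell at IL-12 8 h against IL-12 2 h, with log2 differences of -0.35, -0.73, -0.92, -1.35 and -0.65. Serpinb5 had 10 such genes, led by the helicase gene Ddx11 (r = 0.95), P2rx7 (0.93), Clstn1, Cdh17 and Ina. Sbno2 ran with Ifng (r = 0.96), Tug1, Gbp5, Zfp318 and Fes. Gnaq ran with Cd86 (r = 0.96), Il18rap, Gbp5, Mtrr and Jun, and D730005E14Rik with Jun (r = 0.97), Sema6d, Ifng, Il18r1 and Map1b.

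At IL-12 2 h against untreated cells, where 0.0709% of all genes were called higher, none of the nearest measured neighbours on the chromosome was called. There the log2 difference of Vps4b and Serpinb12, beside Serpinb5, was 0.18 ± 0.09 and 0.18 ± 0.08. Lmod3 and Mitf, beside Frmd4b, had -0.02 ± 0.08 and -0.24 ± 0.09, and Gpx4 and Stk11, beside Sbno2, -0.04 ± 0.09 and 0.09 ± 0.08. Cep78 and Gna14, beside Gnaq, had 0.17 ± 0.08 and 0.06 ± 0.08. The adjusted p was 0.931 for Mitf and 0.999 for the other neighbours. At IL-12 8 h against IL-12 2 h Vps4b, a gene of membrane scission, fell by 0.27 ± 0.07 (adjusted p = 0.0142), while Serpinb5 beside it rose. Dnal4, on one side of D730005E14Rik, had 0.01 ± 0.14, and Apobec3, a cytidine deaminase gene of antiviral defence, overlaps it on the other strand.

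Apobec3 took another course than the RNA it overlaps. Its log2 intensity was 12.01, 11.99, 12.19 and 12.07 in IL-12 8 h arrays 2, 3, 5 and 6, and 11.78, 11.79, 11.72, 11.93 and 11.62 in IL-12 2 h arrays 2 to 6. It was 11.69 and 11.51 in untreated arrays and 11.93 at baseline, so that the baseline array lay above both untreated arrays, whereas D730005E14Rik was lowest at baseline. The difference of Apobec3 was 0.20 ± 0.10 at IL-12 2 h against untreated cells (adjusted p = 0.999), and at IL-12 8 h against IL-12 2 h it rose by 0.29 ± 0.07 (adjusted p = 0.0154). Where the probes of either gene lie on the shared stretch was not tested.

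**Figure D4:**
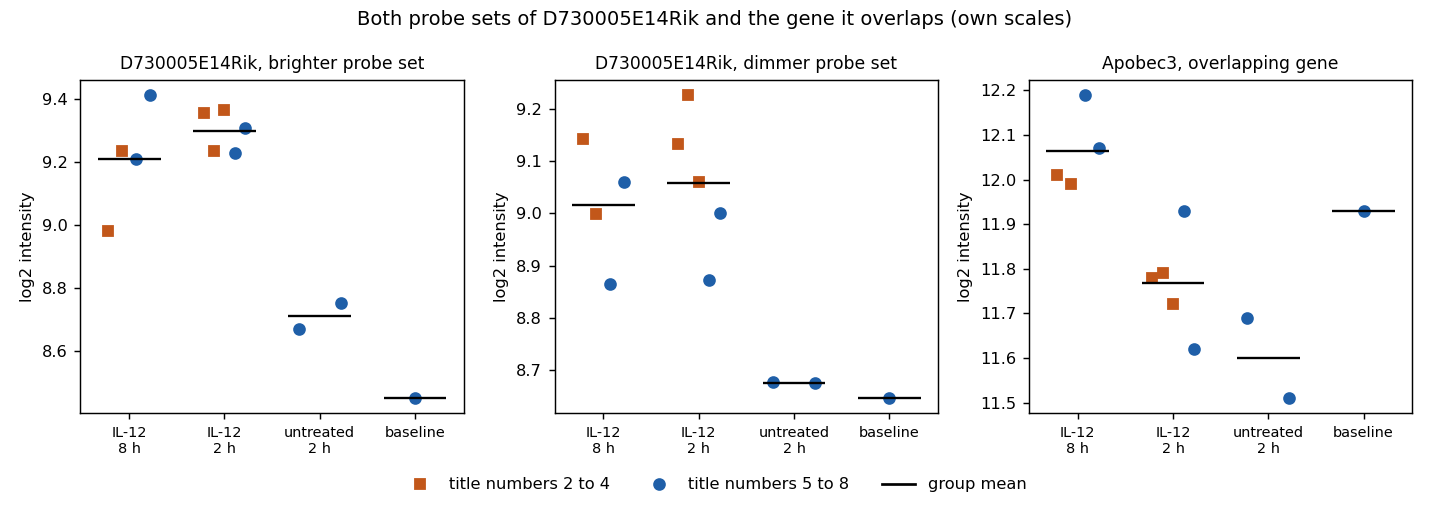
Log2 intensity per array of both probe sets of D730005E14Rik and of Apobec3, by group, with group means as lines and the number run as colour and shape. D730005E14Rik stays high at IL-12 8 h on both probe sets, whereas Apobec3 is highest there and has a baseline value of 11.93, above both untreated arrays.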

How the data were processed

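The deposited values are intensities on a linear scale, which the authors made with RMA and Affymetrix Power Tools, per the submitters' processing notes; the labels give no version, probe annotation or genome build. Log2 of the deposited intensities was taken here, with no added constant. Of 24922 probe sets, 21425 carried 1 gene symbol in the platform annotation, 1399 several and 2098 none. For the 921 genes with several probe sets the brightest stood for the gene, which left 19752 genes. Array medians lay between 160.6 and 167.3, and the number of arrays limits the precision.

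Groups were compared with limma 3.58.1 in R 4.3.3, over all 12 arrays with a run term for title numbers 2 to 4 against 5 to 8. IL-12 8 h against baseline was fitted on its 5 arrays without that term, and the time by run interaction on the 9 IL-12 arrays. P-values were Benjamini-Hochberg adjusted over 19752 genes and called under 0.05. The comparison of IL-12 2 h with untreated cells chose the members, so the members' differences there are descriptions and their adjusted p serves only to show the threshold, and IL-12 8 h against untreated cells shares its untreated arrays. The pairs of IL-12 8 h and 2 h arrays with the same title number (2, 3, 5 and 6) deviated together (r = 0.365, 0.3, 0.519 and 0.372 across genes). Every such pair exceeded 0.1, the rule set for pairing, but IL-12 8 h and 2 h arrays of the same run with different numbers did so as well (r = 0.407 to 0.501). Once run means were subtracted, r of the same-number pairs fell to between -0.264 and 0.0255. The check thus does not show that the numbers pair the samples. No 2 arrays were identical.

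The members and lists were chosen with earlier results of these data known. Named beside the members were the 5 named genes most like each, up to 3 called genes of smallest p per list, nearest neighbours, genes just outside the threshold, and Ifng, Il18r1, Furin and Jun. Serpinb1a and Frmd6 were added so that each called gene of a short list is named. The method was tested on simulated data. Other normalization, filter, covariate, block and left-out-array settings were tried.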

Additional observations from a re-analysis of the deposited data

Results flagged for a closer look

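In Gnaq at IL-12 2 h, array 2 lay apart from the other 4 arrays of its group, with a log2 intensity of 9.60, against 9.33 to 9.40 on the others. Its gap to the nearest array was 0.724 of the range of the group, above Dixon's 95% critical value of 0.71 for 5 arrays. Of 10 groups of arrays examined this way it was the only one, and chance flags about 5% of such groups. Without that array the difference of Gnaq between IL-12 8 h and IL-12 2 h kept its call.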

How the results depend on the processing

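Frmd4b was lower at IL-12 8 h than at IL-12 2 h under all 20 alternatives (-1.58 to -1.11, each called). The members called there were 4 of 5, against 1 in arrays numbered 5 to 8 alone, where D730005E14Rik was 0.043 higher at 8 h, and 3 to 4 with 1 array left out. The title number as a replicate block changed no other member's call than that of Sbno2. With that block 3 members and 1246 genes were called, against 2496 genes without it. That count was 871 without the run term, 363 in arrays numbered 5 to 8, 1380 with the macrophage covariate and 1525 to 2339 with 1 array left out. For IL-12 2 h against untreated cells the 14 genes became 9, 1 and 4 under the same 3 settings and 2 to 13 with 1 array left out; for IL-12 8 h against untreated cells 625 became 243, 320 and 124, and 267 to 568.

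For IL-12 8 h against baseline, 0 members and 10 genes became 4 and 1187 with a run term and the baseline in the run of its number, 3 and 269 with it in the other run, 4 and 1546 over all 12 arrays, 4 and 1124 with 8 h arrays 5 and 6 alone, and 3 and 231 with 8 h arrays 2 and 3 alone. The gene count was 3 with 16 added before log2, 6 after quantile normalization, 2 among genes above the median intensity and 0 to 9 with 1 array left out. Between the runs 1 member became 2 in the 9 IL-12 arrays and 0 to 1 with 1 array left out; with 1 array left out D730005E14Rik ranged over -0.11 to 0.0051 and Frmd4b over -0.017 to 0.12, with the sign changed without IL-12 8 h array 2 and IL-12 2 h array 6. In the time by run interaction 0 members became 1 after quantile normalization and 0 to 1 with 1 array left out, and 387 genes became 136 to 559. There Serpinb5 changed sign without IL-12 8 h array 3 (-0.01) or 5 (-0.17) or IL-12 2 h array 5 (-0.07), and Gnaq without IL-12 2 h array 2 (0.032), within ranges of -0.17 to 0.30 for Serpinb5 and -0.073 to 0.032 for Gnaq. The causes were not tested. Serpinb5 is dim, and with 16 added its difference at IL-12 2 h against untreated cells was 0.75, so that its fold depends on how low signals are treated.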
